A study of Saccharomyces cerevisiae with 6 samples.

Results

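Yeast takes up ammonium through 3 permeases and builds it into glutamate and glutamine, the nitrogen donors for almost every other nitrogen compound of the cell. The 8 genes described here, all of them measured, are those of this route. They were chosen by name among the 6205 reading frames of the array, of which 6151 had a value in every condition. GLT1 (YDL171C) encodes glutamate synthase, the enzyme that makes glutamate from glutamine and 2-oxoglutarate and that carries an iron-sulfur cluster. GLN1 (YPR035W) encodes glutamine synthetase. GDH1 (YOR375C) and its paralog GDH3 (YAL062W) encode NADPH-dependent glutamate dehydrogenases, which join ammonium to 2-oxoglutarate, and GDH2 (YDL215C) encodes the NAD-dependent dehydrogenase, which breaks glutamate down again. MEP1 (YGR121C), MEP2 (YNL142W) and MEP3 (YPR138C) encode the ammonium permeases.

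In this route ammonium enters glutamate either directly, through Gdh1 and Gdh3, or by way of glutamine, through Gln1 and Glt1. The carbon skeleton, 2-oxoglutarate, comes from the first steps of the TCA cycle, which cells without respiration keep up for this purpose through retrograde signalling. GDH1 and GLN1 serve growth on glucose with ammonium, while GDH2, PUT1 and the permease genes are among the genes that good nitrogen sources repress.

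The study measured transcript ratios on 2-colour arrays in 3 settings, all in YEPD, a rich glucose medium, at or below an optical density of 1.0. Cells homozygous for ATP1-111 (strain UCC3980), an allele of the alpha subunit gene of the mitochondrial ATP synthase, were compared 27 h after loss of mitochondrial DNA (mtDNA) with ATP1-111 cells that had kept it. In strain UCC3970, in which NAR1 expression depends on estradiol, 27 h at 2 nM estradiol was set against growth at 50 nM. NAR1 encodes a protein of cytosolic iron-sulfur cluster assembly. Wild-type (WT) cells (strain UCC1899) were compared 3, 11, 19 and 27 h after mtDNA loss with WT cells with intact mtDNA. In the ATP1-111 and WT cells mtDNA was removed with 30 µg/ml ethidium bromide for 6 h, and whether the cells with intact mtDNA also met the dye is not given in the sources used here.

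Every value below is a ratio of treated over control transcript that the authors averaged over dye-swapped arrays of 3 biological replicates, 6 arrays per condition and 5 for ATP1-111. The averages carry no replicate spread, and the number of arrays limits their precision. As a yardstick, 13 genes had 2 spots each, and from their disagreement the log2 SD of 1 spot was 0.151 to 0.239, depending on the condition. Standard errors (SE) and adjusted p-values come from 1 limma fit over all genes and all 6 conditions, in which spread is estimated only from how far the 4 WT times depart from a straight line. ATP1-111 and NAR1 repression, with 1 value each, borrow that scatter as their own. The NAR1 ratio was 0.031 after NAR1 repression, against 0.979 in ATP1-111 cells and 1.42 to 2.25 in WT cells. The median log2 ratio of all genes lay between -0.06 and 0.03 in the 6 conditions.

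The WT time course asks what the loss of mtDNA did to the route over the following hours. Transcripts of the 2 main glutamate-forming enzymes ended far below the control and that of the glutamate-degrading enzyme above it. GLT1 fell and GDH2 rose with time, GDH1 was already low at 11 h, and MEP1 was high at 27 h. GLN1 and MEP3 stayed less than 2-fold from the control at every time.

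GLT1 had ratios of 0.950, 0.504, 0.236 and 0.234 at 3, 11, 19 and 27 h after mtDNA loss in WT cells. It dropped over both of the first intervals, by log2 steps of -0.91 and -1.09, and was flat from 19 to 27 h, where the log2 step was -0.01. At 19 h only 4 of the 6151 genes had a lower ratio. The fitted log2 change over 24 h was -2.15 (SE 0.34, limma adjusted p = 0.0317), and the fitted level at 27 h was -2.38 (SE 0.21, limma adjusted p = 0.00194). GLN1, the partner of GLT1 in the glutamine branch, had ratios of 0.770, 0.783, 0.661 and 0.854 at the same times. It lay below the control at every time without a trend (log2 change 0.06, SE 0.21, limma adjusted p = 0.869).

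GDH1 had ratios of 0.967, 0.303, 0.340 and 0.321 at 3, 11, 19 and 27 h. The whole drop lay between 3 and 11 h, a log2 step of -1.67 that only 4 genes undercut and the later steps were 0.17 and -0.08. Its fitted level at 27 h was -1.93 (SE 0.345, limma adjusted p = 0.0105). A straight line describes such a course poorly, and its slope did not pass (log2 change -1.38, SE 0.55, limma adjusted p = 0.168). GDH3 had ratios of 0.970, 0.493, 1.01 and 1.55 at these times. It shared the low value of GDH1 at 11 h, with 36 genes lower, but stood above the control at 27 h, and neither its slope (0.92, SE 0.58, limma adjusted p = 0.338) nor its fitted level passed.

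GDH2 had ratios of 0.945, 1.49, 2.38 and 2.42 at 3, 11, 19 and 27 h. It climbed over the times at which GLT1 dropped and was flat after 19 h, where the log2 step was 0.03. The fitted log2 change over 24 h was 1.42 (SE 0.25, limma adjusted p = 0.0369), and the fitted level at 27 h was 1.46 (SE 0.15, limma adjusted p = 0.00278). The ratio of GDH2 over that of GDH1, a measure of how unequally the degrading and the forming enzyme changed, was 0.977 at 3 h, 4.91 at 11 h, 6.98 at 19 h and 7.53 at 27 h.

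Among the permeases, MEP1 had ratios of 1.04, 0.947, 1.43 and 2.44 at 3, 11, 19 and 27 h. Its increase came late, with the largest log2 step of 0.76 between 19 and 27 h, a step that 74 genes exceeded. The slope missed the threshold (1.28, SE 0.31, limma adjusted p = 0.0682), while the fitted level at 27 h passed (1.09, SE 0.19, limma adjusted p = 0.0100). MEP2, the high-affinity permease that also serves as an ammonium sensor, had ratios of 1.03, 1.24, 1.25 and 1.40. It was modestly above the control by the fitted level at 27 h (0.49, SE 0.10, limma adjusted p = 0.0137). MEP3 had ratios of 0.766, 0.797, 0.762 and 0.917, all below the control, and passed neither test.

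**Figure D1:**
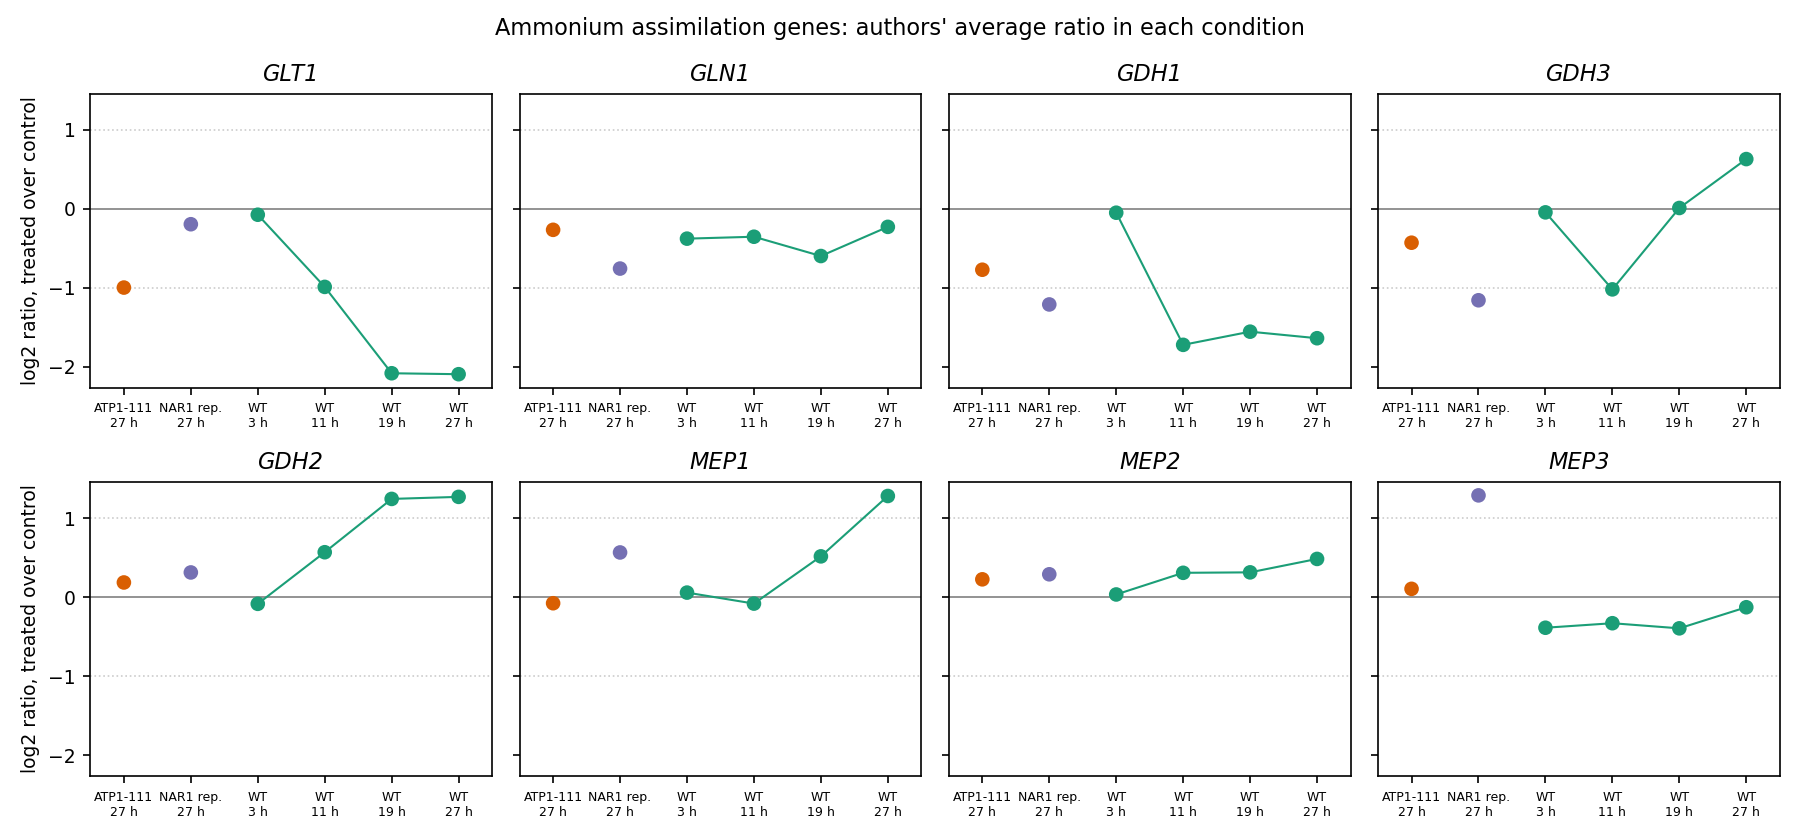
Log2 ratio of treated over control (vertical axis) of each of the 8 genes in the 6 conditions (horizontal axis), with ATP1-111 in orange, NAR1 repression in purple and the WT time course joined by a green line. Points are the authors' averages without replicate error, and dotted lines mark a 2-fold difference. GLT1 and GDH1 lie below -1 in WT cells at 27 h, at ratios of 0.234 and 0.321, and GDH2 and MEP1 above 1, at 2.42 and 2.44.

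By the slope, 1 of the 8 genes rose and 1 fell, where 4.63% of all 6151 genes rose and 2.62% fell. By the fitted level at 27 h 3 were higher and 2 lower, beside 18.0% and 22.5% of all genes, so the level test passes so often that this count says little about the route. By size, GDH2 and MEP1 exceeded 2-fold upward at 27 h, as did 5.17% of all genes, and GLT1 and GDH1 downward, as did 2.83%. The slope call of GLT1 was lost without the 3 h point (log2 change -1.66, limma adjusted p = 0.145) and without the 19 h point (-1.97, adjusted p = 0.0664), within a range of adjusted p-values of 0.0253 to 0.270 over 11 alternatives. With columns scaled to equal spread neither slope call held (-1.48 for GLT1 and 1.12 for GDH2, limma adjusted p = 0.201 and 0.197). In this setting, and also without the 19 h point, 0 of all 6151 genes passed for the slope. Calls lost there were lost for every gene. The GDH2 slope call was lost without the 3, 11 or 19 h point (log2 changes 1.05, 1.45 and 1.31, adjusted p = 0.196, 0.0525 and 0.0882, range 0.0262 to 0.270), and without the 3 h point the slopes of MEP1 (2.04, adjusted p = 0.0240, range 0.0240 to 0.322) and GDH3 (2.48, adjusted p = 0.0207, range 0.0207 to 0.958) passed and that of GDH1 turned to 0.12. Without the 11 h point the GDH1 slope passed (-1.69, adjusted p = 0.0442, range 0.0442 to 0.852).

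The fitted levels of GLT1 and GDH2 at 27 h passed without any of the 4 WT points. That of GDH1 did not pass without the 19 or the 27 h point (-1.88 and -2.62, limma adjusted p = 0.0531 and 0.0532, range 0.000436 to 0.162 over 11 alternatives) or with scaled columns (-1.52, adjusted p = 0.0794), that of MEP1 without the 27 h point (0.63, limma adjusted p = 0.177, range 0.000779 to 0.177), and that of MEP2 without the 19 or the 27 h point (0.51 and 0.50, limma adjusted p = 0.0543 and 0.118, range 0.00635 to 0.118). GDH1 and GDH3, and likewise MEP1 and MEP3, are close paralogs. How far the probe of each also binds the other's cDNA was not tested.

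The next comparison asks whether ATP1-111 cells, which lost mtDNA in the same way, changed the same genes. GDH2, the glutamate-degrading dehydrogenase, had a lower ratio in ATP1-111 cells than in WT cells, and for the other 7 genes the difference between strains did not pass. GLT1 and GDH1 were still the lowest of the 8 genes in ATP1-111 cells.

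GDH2 had a ratio of 1.14 in ATP1-111 cells, against 2.42 in WT cells at 27 h. The log2 difference from the fitted WT level was -1.28 (SE 0.24, limma adjusted p = 0.0454). GLT1 had a ratio of 0.501 in ATP1-111 cells and 0.234 in WT cells (difference from the fitted level 1.39, SE 0.33, 95% interval 0.56 to 2.22, limma adjusted p = 0.0659). GDH1 stood at 0.586 in ATP1-111 cells and at 0.321 in WT cells (difference 1.16, SE 0.54, 95% interval -0.19 to 2.52, limma adjusted p = 0.217). For GLT1 and GDH1 the fitted WT levels at 27 h, -2.38 and -1.93, lay below the measured log2 ratios of -2.095 and -1.639. With the measured 27 h WT point in place of the line the differences were smaller, 1.10 for GLT1 and 0.87 for GDH1, and did not pass. All genes spread less in the ATP1-111 column, with a median absolute deviation of log2 ratios of 0.114, against 0.279 in WT cells at 27 h. With columns scaled to equal spread the difference was 0.064 for GLT1 (limma adjusted p = 0.950), 0.145 for GDH1 (adjusted p = 0.937) and -0.85 for GDH2 (adjusted p = 0.221).

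MEP1 was at a ratio of 0.950 in ATP1-111 cells, against 2.44 in WT cells (difference -1.16, SE 0.30, limma adjusted p = 0.0766), and GDH3 at 0.743 against 1.55 (difference -0.78, SE 0.56, limma adjusted p = 0.394). Both were on the other side of the control in the ATP1-111 cells, without passing. MEP2 (1.17 in ATP1-111, 1.40 in WT), MEP3 (1.08 and 0.917) and GLN1 (0.832 and 0.854) had adjusted p-values from 0.258 to 0.787. The 95% interval of the difference for GLN1 ran from -0.41 to 0.60.

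Against its own control 0 of the 8 genes passed in ATP1-111 cells by limma, where 0.114% of all genes did so. At an unadjusted p under 0.05 there was 1, GLT1 (ratio 0.501, log2 SE 0.25, adjusted p = 0.342), and ordinary least squares gave 0 by either rule. After adjustment ordinary least squares passed 0 of all 6151 genes in every test, here and below. The share of all genes at an unadjusted p was not counted, so unadjusted counts stand without a matching share. In rank GLT1 and GDH1 nevertheless lay at the bottom of the narrow ATP1-111 distribution, with 22 and 41 of the 6151 genes lower. In WT cells at 27 h 8 and 35 genes lay below them. Against WT cells 0 of the 8 were higher and 1 was lower in ATP1-111 cells, where 3.09% and 4.62% of all genes were (at an unadjusted p under 0.05, 1 higher and 2 lower, and by ordinary least squares 0). The GDH2 call was lost without the 11 h point (-1.27, limma adjusted p = 0.0650), without the 19 h point (-1.13, adjusted p = 0.103) and with the 27 h WT point in place of the fitted line (-1.08, adjusted p = 0.0803), in a range from 0.0234 to 0.271 over 12 alternatives. Without the 19 h point 0 of all 6151 genes passed for this difference. The GLT1 difference passed without the 3 or the 27 h point (1.28 and 2.06, adjusted p = 0.0428 and 0.0433, range 0.0428 to 0.950), and without the 3 h point so did those of GDH1 (0.83, adjusted p = 0.0301, range 0.0301 to 0.937), GDH3 (-1.13, adjusted p = 0.0179, range 0.0179 to 0.925) and MEP1 (-1.33, adjusted p = 0.00953, range 0.00953 to 0.332).

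The study also asked what repression of NAR1, a gene of cytosolic iron-sulfur cluster assembly, did to transcripts. The labels name no ethidium bromide for these cells, and neither their mtDNA nor their cluster assembly is given in the sources used here. Of the permeases and enzymes, MEP3 was higher and GLN1 lower than in cells that kept NAR1, and GLT1 was close to its control. GDH1 and GDH3 had lower ratios than GLN1 (0.432 and 0.448 against 0.592) but did not pass.

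MEP3 had a ratio of 2.45 after NAR1 repression, against 0.766 to 0.917 in WT cells without mtDNA. Only 43 of the 6151 genes had a higher ratio in the NAR1 column. It passed against its own control (log2 1.29, SE 0.12, limma adjusted p = 0.00599) and against the fitted WT level at 27 h (1.49, SE 0.16, limma adjusted p = 0.00597). MEP1 was at 1.48 after NAR1 repression and 2.44 in WT cells at 27 h, so that the ratio of MEP1 over that of MEP3 was 0.606 after NAR1 repression and 2.66 in WT cells. MEP2 was at 1.22 after NAR1 repression and 1.40 in WT cells, and neither permease passed in the NAR1 column (limma adjusted p = 0.125 and 0.119).

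GLT1 had a ratio of 0.874 after NAR1 repression, against 0.234 in WT cells 27 h after mtDNA loss. It did not pass against its control (log2 -0.19, SE 0.25, 95% interval -0.83 to 0.44, limma adjusted p = 0.606) and was higher than the fitted WT level (2.19, SE 0.33, limma adjusted p = 0.0126). GLN1 had a ratio of 0.592 after NAR1 repression and 0.854 in WT cells at 27 h. It passed against its own control (log2 -0.76, SE 0.15, limma adjusted p = 0.0257), and the difference from WT did not (-0.40, SE 0.20, limma adjusted p = 0.192).

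GDH1 and GDH3 stood at 0.432 and 0.448 after NAR1 repression, nearly the same ratio, whereas in WT cells at 27 h they stood at 0.321 and 1.55. With 139 and 159 genes lower they were near the low end of the NAR1 column, but neither passed (limma adjusted p = 0.0862 and 0.105). Their log2 SE of 0.41 and 0.43, against 0.15 for GLN1, reflects how far their WT courses depart from a straight line. It does not measure scatter in the NAR1 column, so not passing does not show that they were unchanged. GDH2 was at 1.25 after NAR1 repression, against 2.42 in WT cells, and was lower than the fitted WT level (-1.15, SE 0.24, limma adjusted p = 0.0265).

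**Figure D2:**
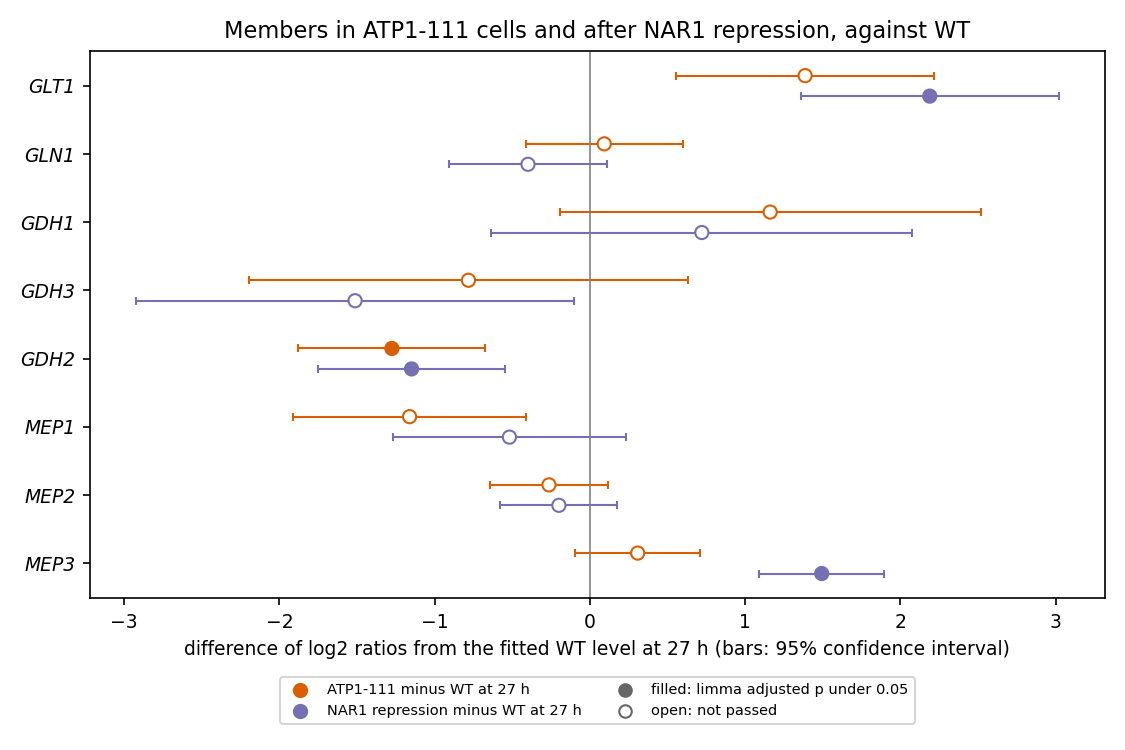
Difference of the log2 ratio of each gene from the fitted WT level at 27 h (horizontal axis) in ATP1-111 cells (orange) and after NAR1 repression (purple). Bars are 95% confidence intervals from the limma fit, and filled points passed at an adjusted p under 0.05. GDH2 is lower than in WT in both, by -1.28 and -1.15, while GLT1 and MEP3 are filled only for NAR1 repression, at 2.19 and 1.49.

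In all, 1 of the 8 genes was higher and 1 lower after NAR1 repression, beside 13.3% and 11.2% of all genes, and 2 were higher and 1 lower than in WT cells, beside 13.9% and 12.1%. Both differences from WT use the same fitted WT level, so the lower GDH2 in ATP1-111 and in NAR1 repression rests in part on the same WT values. Calls of GLT1 and MEP3 against WT, and of GLN1 and MEP3 against their own control, passed without any of the 4 WT points, while with columns scaled to equal spread those of GLT1 (1.68, limma adjusted p = 0.0857) and GLN1 (-0.60, adjusted p = 0.0862) were lost. The call of GDH2 against WT was lost without the 19 h point (limma adjusted p = 0.0589) and with the WT 27 h point in place of the line (-0.96, adjusted p = 0.0613, range 0.0176 to 0.200 over 12 alternatives). Without the 3 h point GDH1 (adjusted p = 0.00282, range 0.00282 to 0.358), GDH3 (0.00393, range 0.00393 to 0.387) and MEP1 (0.0175, range 0.0175 to 0.384) also passed against their control, and without the 11 h point GDH1 (0.0242) and GDH3 (0.0232) did. Against the fitted WT level GDH3 passed without the 3 or the 11 h point (adjusted p = 0.00219 and 0.0175, range 0.00219 to 0.438) and MEP1 without the 3 h point (0.0260, range 0.0260 to 0.909).

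**Figure D3:**
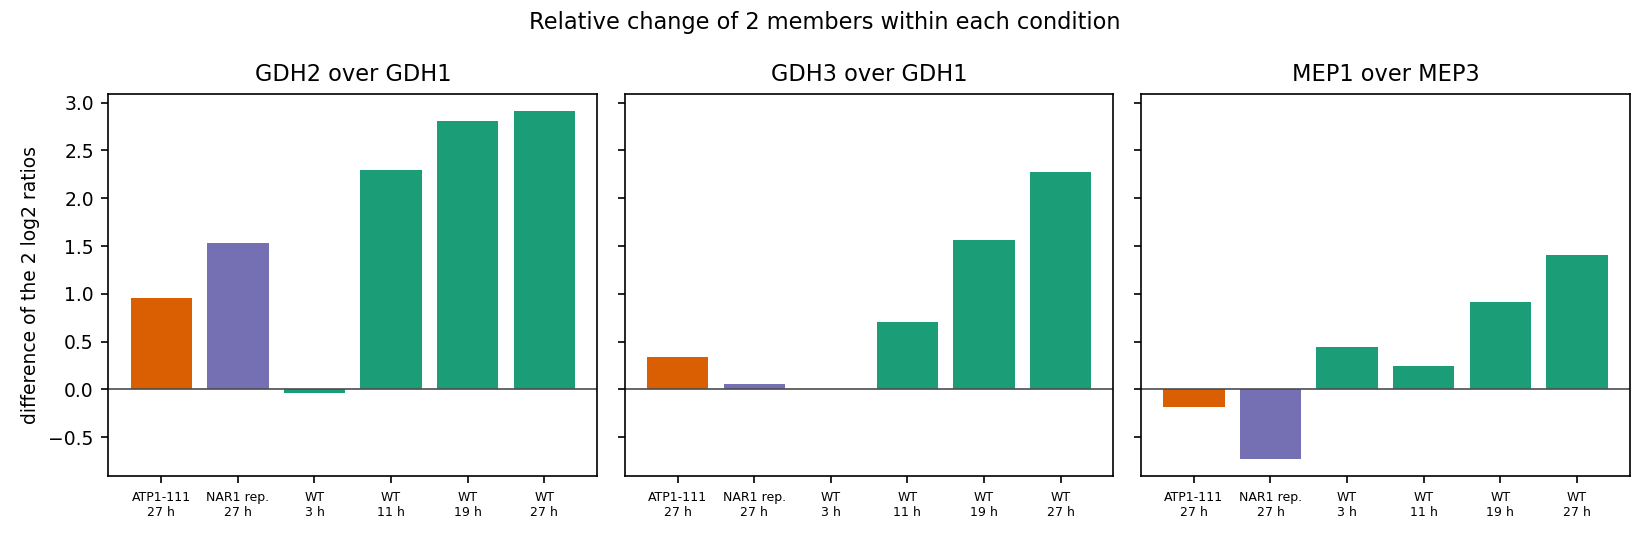
Difference of the log2 ratios of 2 genes within each condition (vertical axis), with ATP1-111 in orange, NAR1 repression in purple and WT times in green (horizontal axis). Bars are single values without replicate error. GDH2 over GDH1 is 0.96 in ATP1-111, 1.53 after NAR1 repression and 2.91 in WT at 27 h on the log2 scale, and MEP1 over MEP3 is below the zero line in the first pair of conditions.

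GLT1 was set beside 9 other genes for iron-sulfur enzymes of amino acid synthesis, cofactor synthesis and respiration. In this and the later lists, the percentages of all genes are for adjusted p-values only. The share of all genes at an unadjusted p was not counted. The unadjusted counts therefore cannot be set against these percentages. In WT cells 4 of these 10 genes fell with time and 0 rose by limma, beside 2.62% and 4.63% of all genes (9 and 0 at an unadjusted p under 0.05, and by ordinary least squares 0 in all, or 3 unadjusted), and the median fitted change was -1.18 beside -0.05 for all genes. The genes that fell were GLT1, ILV3 (dihydroxyacid dehydratase, -1.82, SE 0.23, limma adjusted p = 0.0227), LYS4 (homoaconitase, -1.36, SE 0.24, adjusted p = 0.0375) and ECM17 (sulfite reductase, -0.82, SE 0.15, adjusted p = 0.0427). LEU1, the isopropylmalate isomerase gene, was the lowest of them at 27 h with a ratio of 0.114, and its slope had an adjusted p of 0.0571. ACO1, the aconitase gene, was at 0.727.

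In ATP1-111 cells 3 of the 10 were higher than in WT and 0 lower by limma, beside 3.09% and 4.62% of all genes (8 and 0 unadjusted, 0 by ordinary least squares, or 2 unadjusted), namely ILV3 (ratio 0.615 against 0.254), ECM17 (1.05 against 0.525) and RIP1 (0.707 against 0.318), the Rieske protein of the respiratory chain. These counts come from unscaled columns, and all genes spread less in the ATP1-111 column. With columns scaled to equal spread 0.504% of all genes passed for this difference in either direction. Neither this list nor those below were counted in that setting. After NAR1 repression 0 of the 10 were higher and 3 lower than in control cells, beside 13.3% and 11.2% of all genes (0 and 3 unadjusted, 0 by ordinary least squares, or 2 unadjusted). The lower ones were ACO1 (ratio 0.498), SDH2 (0.612), a succinate dehydrogenase subunit, and ECM17 (0.718). Against the fitted WT level 5 were higher and 0 lower after NAR1 repression, beside 13.9% and 12.1% of all genes (8 and 0 unadjusted, 0 by ordinary least squares, or 4 unadjusted). GLT1 was one of them, with LEU1 (0.753 against 0.114), ILV3 (1.03 against 0.254), LYS4 (0.930 against 0.446) and RIP1 (0.934 against 0.318).

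**Figure D4:**
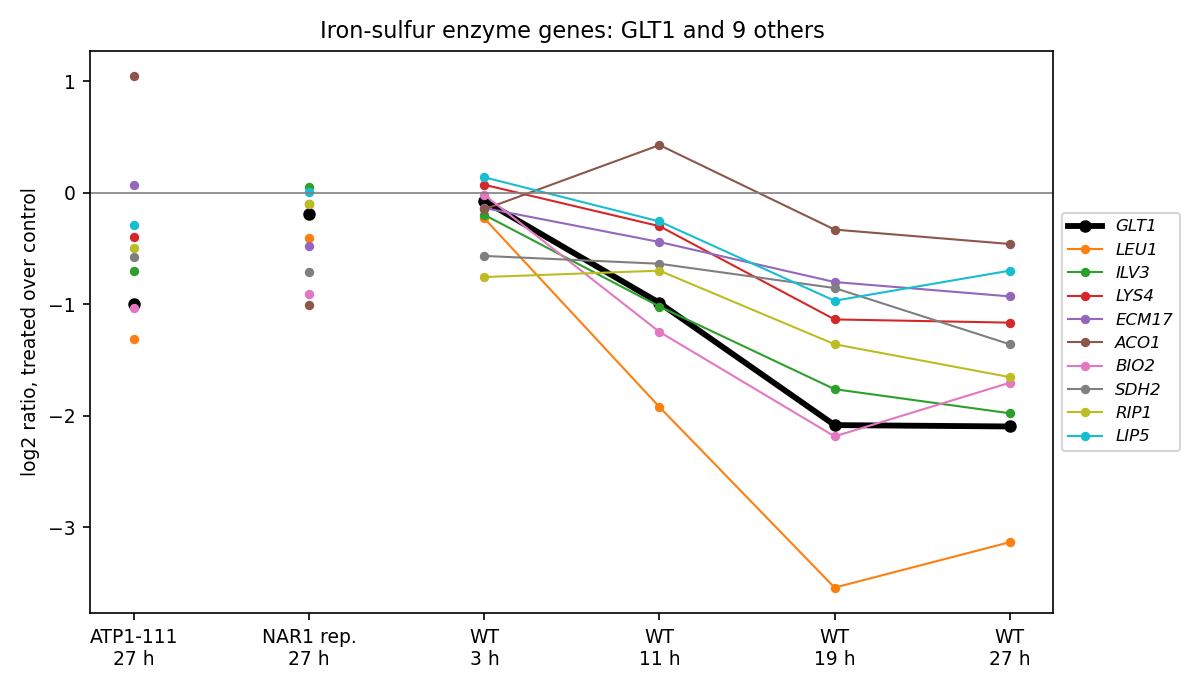
Log2 ratio of treated over control (vertical axis) of GLT1 (thick black) and 9 other genes for iron-sulfur enzymes in the 6 conditions (horizontal axis), with the WT times joined by lines. Points are the authors' averages without replicate error. In WT cells at 27 h all 10 lie below 0, with ratios from 0.114 for LEU1 to 0.727 for ACO1, and after NAR1 repression GLT1 is at 0.874.

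Over the 6 conditions the gene nearest to GLT1 was BAT1, the mitochondrial branched-chain aminotransferase gene, at a Euclidean distance of 0.34 between their log2 ratios, where the median distance over all genes was 3.26. BAT1 had ratios of 0.482 in ATP1-111 cells, 0.739 after NAR1 repression and 0.224 in WT cells at 27 h. Next came ILV3 and CYB5, the cytochrome b5 gene, both at 0.53, then CIR2 at 0.73 and MYG1 at 0.76. GDH1 had no such close match, with BIO2, the biotin synthase gene, at 0.89 and LEU9 and MET6 at 1.03 and 1.04. GDH3 was likewise apart, with ARG7 at 0.89, FUR4 at 0.94 and ASN1 at 0.97.

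For GDH2 the nearest genes were ATG39 (0.36), MOH1 and DAS1 (0.45 each), and for MEP1 they were MTG1 (0.27), BAP3 (0.36), an amino acid permease gene, and PAU14 (0.38). The nearest to MEP3 were YBR071W (0.39), FRK1 (0.43) and DAL7 (0.45), the malate synthase gene of allantoin use. DAL7 had ratios of 2.57 after NAR1 repression and 1.12 in WT cells at 27 h. These distances describe the 6 averages only.

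Transcripts for the enzymes that supply and use 2-oxoglutarate passed the slope test about as often as those of all genes. Of 17 such genes 1, CIT2, rose with time in WT cells and 0 fell, beside 4.63% and 2.62% of all genes (3 and 4 at an unadjusted p under 0.05, and by ordinary least squares 0, or 2 unadjusted). By the fitted level at 27 h 5 of the 17 were higher and 6 lower, beside 18.0% and 22.5% of all genes, with a median of -0.16 beside -0.06 for all genes. IDH1 and IDH2, the subunits of the NAD-dependent isocitrate dehydrogenase that makes 2-oxoglutarate, had ratios of 2.77 and 2.89 in ATP1-111 cells and of 5.39 and 2.96 in WT cells at 27 h. In WT cells both were near 1 at 3 h and above 3 at 11 h. KGD1 and KGD2, subunits of the dehydrogenase that consumes 2-oxoglutarate, were at 0.967 and 0.939 in ATP1-111 cells and at 0.442 and 0.473 in WT cells, and for KGD2 the strain difference passed (0.91, SE 0.17, limma adjusted p = 0.0440). CIT2, the peroxisomal citrate synthase gene, differed the other way, with a ratio of 1.18 in ATP1-111 cells and 4.40 in WT cells (-1.99, SE 0.27, limma adjusted p = 0.0285). These were the 1 higher and 1 lower of the 17 in ATP1-111 against WT, beside 3.09% and 4.62% of all genes (3 and 3 unadjusted, 0 by ordinary least squares, or 3 unadjusted). After NAR1 repression 0 of the 17 were higher and 6 lower than in control cells, beside 13.3% and 11.2% of all genes (0 and 7 unadjusted, 0 by ordinary least squares, or 4 unadjusted), among them PYC2 (0.492), ACO1 (0.498), PYC1 (0.528) and ODC1 (0.594), the pyruvate carboxylase and oxodicarboxylate carrier genes beside aconitase.

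Of 12 aminotransferases that take or give the amino group of glutamate, 2 rose and 1 fell with time in WT cells, beside 4.63% and 2.62% of all genes (3 and 3 unadjusted, 0 by ordinary least squares, or 1 unadjusted). By the fitted level at 27 h 3 were higher and 7 lower, beside 18.0% and 22.5% of all genes. ALT1, an alanine aminotransferase gene, rose to a ratio of 2.05 at 27 h (log2 change 1.76, SE 0.29, limma adjusted p = 0.0345), and BAT2, the cytosolic branched-chain enzyme, rose to 1.85 (1.65, SE 0.28, adjusted p = 0.0369), while BAT1 fell (-2.22, SE 0.36, adjusted p = 0.0323). BAT1 and BAT2 thus moved in opposite directions. In ATP1-111 cells 1 of the 12, CAR2, was higher than in WT (1.28 against 0.493) and 0 lower, beside 3.09% and 4.62% of all genes (3 and 2 unadjusted, 0 by ordinary least squares, or 1 unadjusted).

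Among 14 enzymes that take nitrogen from glutamine, 2 rose and 0 fell with time in WT cells, beside 4.63% and 2.62% of all genes (3 and 4 unadjusted, 0 by ordinary least squares, or 4 unadjusted). CPA1, a gene of arginine synthesis, was among them (log2 change 2.44, SE 0.17, limma adjusted p = 0.0170). It was also lower in ATP1-111 than in WT cells, with a ratio of 1.13 against 6.71. ADE4 and ADE6 of purine synthesis were higher in ATP1-111 than in WT (1.00 against 0.455 and 0.915 against 0.496). After NAR1 repression 2 of the 14 were higher and 5 lower than in control cells, beside 13.3% and 11.2% of all genes (4 and 7 unadjusted, 0 by ordinary least squares, or 6 unadjusted). GFA1, which makes glucosamine phosphate, was at 2.13 and URA8, a CTP synthase gene, at 0.317.

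Proline and GABA are further sources and stores of glutamate. Of 8 genes for their conversion 1, the GABA transaminase gene UGA1, rose with time in WT cells (0.86, SE 0.17, limma adjusted p = 0.0496) and 0 fell, beside 4.63% and 2.62% of all genes (3 and 1 unadjusted, 0 by ordinary least squares, or 2 unadjusted). PUT1, the proline oxidase gene, had ratios of 1.15 in ATP1-111 cells, 0.490 after NAR1 repression and 2.15 in WT cells at 27 h. It was lower than in WT in ATP1-111 cells (-0.98, SE 0.18, adjusted p = 0.0435) and after NAR1 repression (-2.21, SE 0.18, adjusted p = 0.00395). After NAR1 repression 5 of the 8 were lower than in control cells and 0 higher, beside 11.2% and 13.3% of all genes (7 and 1 unadjusted, 0 by ordinary least squares, or 5 unadjusted), led by the glutamate decarboxylase gene GAD1 at 0.268.

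The next list held genes for poor nitrogen sources under nitrogen catabolite repression, to which GDH2 and the permeases are also known to respond. In a list of this size 0 slope calls is near the shares of all genes. The median slope of these genes was 0.23, beside -0.05 for all genes. Of these 18 genes 0 rose and 0 fell with time in WT cells by limma, beside 4.63% and 2.62% of all genes (4 and 0 at an unadjusted p under 0.05, 0 by ordinary least squares, or 1 unadjusted). By the fitted level at 27 h 3 were higher and 4 lower, beside 18.0% and 22.5% of all genes. DAL5 was among the higher (0.89, SE 0.21, limma adjusted p = 0.0243) and GAP1 among the lower (-0.62, SE 0.10, limma adjusted p = 0.00802). None of them differed between ATP1-111 and WT cells by limma, where 3.09% of all genes were higher and 4.62% lower. At an unadjusted p under 0.05, 4 of the 18 were higher and 2 lower, and ordinary least squares gave 0 by either rule. DAL5, an allantoate permease gene, had a ratio of 0.995 in ATP1-111 cells and 2.22 in WT cells at 27 h, and the general amino acid permease gene GAP1 had 0.652 and 0.648. After NAR1 repression 1 of the 18, DAL7, was higher (2.57) and 1, the peptide transporter gene OPT2, lower (0.206), beside 13.3% and 11.2% of all genes.

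Among 16 regulators of nitrogen and amino acid genes 0 rose and 0 fell by the slope, beside 4.63% and 2.62% of all genes (4 higher and 0 lower unadjusted, 0 by ordinary least squares, or 1 unadjusted). By the fitted level at 27 h 4 were higher and 2 lower, beside 18.0% and 22.5% of all genes. After NAR1 repression 3 were higher and 1 lower than in control cells, beside 13.3% and 11.2%. The activator genes GLN3 and GCN4 had ratios of 1.09 and 1.06 in ATP1-111 cells, 1.06 and 1.39 after NAR1 repression, and 1.10 and 1.46 in WT cells at 27 h. GCN4, which is chiefly controlled in translation, was above the control by the fitted level (0.62, SE 0.12, limma adjusted p = 0.0125). So was RTG3 (0.66, SE 0.12, limma adjusted p = 0.0116), while GAT1 was below it (-0.61, SE 0.11, limma adjusted p = 0.0115). Of 35 amino acid synthesis genes under Gcn4 5 rose and 0 fell with time, beside 4.63% and 2.62% of all genes (7 and 5 unadjusted, 0 by ordinary least squares, or 9 unadjusted), among them the arginine synthesis genes ARG1, ARG3, ARG4 and CPA1. The median slope of the list was -0.02, beside -0.05 for all genes. By the fitted level at 27 h 7 of the 35 were higher and 11 lower, beside 18.0% and 22.5% of all genes. After NAR1 repression 1 was higher and 10 lower than in control cells, beside 13.3% and 11.2%.

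Of 6 measured genes for ammonium export and for the control of permeases, 0 passed in WT cells by limma, for the slope or the level (0 at an unadjusted p under 0.05, and 0 by ordinary least squares by either rule). Of all genes 4.63% rose and 2.62% fell by the slope, and 18.0% were higher and 22.5% lower by the level. After NAR1 repression 1 of the 6 was higher and 0 lower, beside 13.3% and 11.2% of all genes. The higher one was PAR32, whose product is known to hold Mep1 and Mep3 inactive when nitrogen is plentiful. It had a ratio of 1.76 after NAR1 repression, against 0.908 in ATP1-111 and 0.873 in WT cells at 27 h, and passed against its control (0.82, SE 0.11, limma adjusted p = 0.0115) and against WT (0.96, SE 0.145, limma adjusted p = 0.0126).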

How the data were processed

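A single deposited table held 6259 rows and 6 columns of linear ratios, treated (channel 2) over control (channel 1). Per the labels each ratio is the authors' average over 6 arrays (5 for ATP1-111) of oligo(dT)-primed cDNA coupled to Cy3 or Cy5. Background correction, normalization and the kind of average are not given in the sources used here, and brightness was not available for a filter on dim spots. Direction was taken from the titles. Without 28 control rows, ratios were taken to log2 and 13 genes with 2 spots averaged, which gave 6205 reading frames. Of these 5705 took a symbol by locus tag from the reference gene table (R64), and 6151 with 6 values were tested. The model in limma 3.58.1 (R 4.3.3) had a level for NAR1 repression, one for ATP1-111, one for WT at 27 h and a slope in time for WT, with 2 residual and 3.35 prior degrees of freedom. Two-sided p-values were adjusted over the 6151 genes (Benjamini-Hochberg, threshold 0.05) and treat columns as samples. Whether WT times shared control RNA is not given in the sources used here. If so, tests of levels would be too lenient. The script was tested on simulated data. The 8 genes and the other gene lists were chosen with earlier results of these data known. All 8 genes are named. Other genes were named where they were among the largest changes past a test in a list (up to 4), behind a count of 5 or fewer, or nearest to GLT1 (5) or to another of the 8 that reached 2-fold (3). LEU1, ACO1 as the highest iron-sulfur gene, IDH1, IDH2, KGD1, DAL5, GAP1, GLN3 and GCN4 were named after their values were seen. Alternatives covered the time scale, each WT time point, column centring and spread, variance moderation, a pseudocount of 0.1 and the genes tested. The values of 1 gene in the lists are not reported here.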

Additional observations from a re-analysis of the deposited data

Results flagged for a closer look

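GDH2 differed between strains in the test of the difference itself. Its ratio was 1.14 in ATP1-111 cells and 2.42 in WT cells at 27 h, and the log2 difference from the fitted WT level was -1.28 (limma adjusted p = 0.0454). It was the 1 gene of the 8 that passed this test. The differences of GLT1 (1.39) and MEP1 (-1.16) were of like size and did not pass. The GDH2 call held in 7 of 12 alternatives. With the WT 27 h point in place of the fitted line its difference was -1.08, and with scaled columns -0.85, and neither passed.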

How the results depend on the processing

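No paired analysis was possible because each condition has 1 averaged column without replicate numbers. Of the 8 genes 2 passed for the WT slope, 5 for the WT level at 27 h, 1 for ATP1-111 minus WT, 2 for the NAR1 repression level and 3 for NAR1 repression minus WT. Of all genes 7.25%, 40.5%, 7.71%, 24.5% and 26% passed in these tests, in either direction. With columns scaled to equal spread these counts were 0 (4 at an unadjusted p under 0.05), 3, 0 (2 unadjusted), 1 and 1. The shares of all genes in that setting were 0%, 17.2%, 0.504%, 2.88% and 3.85%, all by adjusted p-values. Shares at an unadjusted p were not counted. By ordinary least squares, with 2 residual degrees of freedom, each was 0 (1, 3, 0, 1 and 2 unadjusted). In that setting 0 of all genes passed in any test, so these counts are not particular to the 8 genes. With the WT 27 h column in place of the line, ATP1-111 minus WT gave 0 (3 unadjusted), beside 3.61% of all genes. Leaving out each WT time in turn gave 0 to 2 for the slope, 2 to 6 for the WT level, 0 to 5 for ATP1-111 minus WT, 2 to 5 for the NAR1 level and 2 to 5 for NAR1 repression minus WT. Without the 19 h point 0 of all genes passed for the slope or for ATP1-111 minus WT.

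Signs turned in 9 cases, and none of the turned values passed. Leaving out each WT time gave slopes of -2.26 to 0.12 for GDH1, -0.33 to 0.19 for GLN1 and -0.011 to 0.30 for MEP3, and a GLN1 difference between ATP1-111 and WT of -0.032 to 0.40. The WT level of GDH3 lay between -0.30 and 0.70, of which the upper value, without 3 h, passed. The MEP1 level in ATP1-111 was 0.070 with log2(ratio + 0.1). The ATP1-111 minus WT differences were -0.24 for GLN1 and 0.014 for MEP2 with scaled columns, and -0.038 for GLN1 with the WT 27 h column. The GDH1 level after NAR1 repression also passed with time as log2 of hours (adjusted p = 0.0328), as did the WT level of GLN1 (0.0386), and the MEP2 level after NAR1 repression with log2(ratio + 0.1) (0.0369). These alternatives were labelled for tested estimates of the 8 genes and, with centred or scaled columns, for their single log2 ratios. Together 563 were labelled the same. For a tested estimate this means the same direction and call. For a single ratio, which has no call, it means a shift below the log2 SD of 1 spot. Among tested estimates 36 lost the call, 20 gained it and 9 turned, and 12 single ratios moved in size. The causes were not tested. The first of 2 spots could not be tried, as the 8 genes have 1 spot each, and no brightness was available to judge dim spots.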

Other observations

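Several chromosomal neighbours of the 8 genes had ratios far from theirs. UGA3, the activator gene of GABA use that lies upstream of GLT1 on the opposite strand, had ratios of 0.809 in ATP1-111 cells, 1.20 after NAR1 repression and 1.42 in WT cells at 27 h, where GLT1 had 0.501, 0.874 and 0.234. PAR32 lies on the downstream side of GLT1.

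BDH2, a putative medium-chain alcohol dehydrogenase gene next to GDH3 on its downstream side and on the same strand, had a ratio of 2.37 in ATP1-111 cells and 0.329 after NAR1 repression, against 7.16 in WT cells at 27 h. Its earlier ratios in WT cells were 0.550 at 3 h, 4.75 at 11 h and 6.90 at 19 h. At 11 h BDH2 was far above and GDH3 far below the control. AAH1, the adenine deaminase gene downstream of MEP2, had ratios of 0.839 in ATP1-111 cells, 1.64 after NAR1 repression and 2.51 in WT cells at 27 h. ALD4, a mitochondrial aldehyde dehydrogenase gene downstream of GDH1, was at 0.492 at 3 h and 1.50 at 19 h in WT cells, while GDH1 was at 0.967 and 0.340. These neighbours were named after their values were seen.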
